A study of Homo sapiens with 6 samples.

Results

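The 10 genes described here encode the blood clotting factors that hepatocytes make, together with tissue factor. They are F2, F5, F7, F9, F10, F11, F12, F13B, F3 and KNG1, and they were taken by gene name from the 26184 genes and loci of the deposited table. All 10 names were found, each as 1 annotated protein-coding gene. Poly(A) RNA came from 3 samples each of Huh7 P and Huh7 LR cells. Huh7 P is the untreated parental line of Huh7, a line of human hepatocellular carcinoma cells whose genotype the labels give as WT. Huh7 LR is the same line made resistant to lenvatinib, an inhibitor of receptor tyrosine kinases, whose dose was raised from 1 μM to 20 μM over about 10 months and then kept at 20 μM. A single resistant line was derived, so the samples of each line are repeats of that line, and whether it was cloned is not given in the sources used here. Drug, months in culture and line cannot be told apart, and whether the drug was present when RNA was taken is not stated.

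Blood clotting runs as a cascade in which each protease activates the next. The extrinsic arm starts when tissue factor (F3), a membrane protein, binds factor VII (F7), and the intrinsic arm starts with factor XII (F12) and high molecular weight kininogen (KNG1), which act through factor XI (F11) and factor IX (F9). Both arms meet at factor X (F10), which with its cofactor factor V (F5) turns prothrombin (F2) into thrombin, and thrombin makes fibrin from fibrinogen. Factor XIII then crosslinks the fibrin, and F13B encodes its carrier subunit. Most of these proteins reach the plasma from hepatocytes, and prothrombin and factors VII, IX and X need vitamin K for their carboxylation. Tissue factor is the exception among the 10, since it stays on the surface of the cell that makes it.

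The reads counted on genes totalled 62738937 to 71427573 in Huh7 P and 63233655 to 70768720 in Huh7 LR. Spearman's correlation across the tested genes was 0.9907 to 0.9951 between libraries of the same line and 0.9741 to 0.9761 between the lines, where genes are not independent replicates. No library stood apart, and no 2 libraries of a line agreed within sampling noise. Levels are given as CPM (counts relative to library size, scaled by edgeR's TMM method) or, where genes are compared with each other, as the FPKM that the authors deposited, which are also scaled by transcript length. Values after ± are standard deviations (SD) over the 3 libraries of a line. All 8 hepatocyte markers (ALB, TTR, APOA1, APOB, APOH, TF, SERPINA1 and AMBP) were expressed in both lines. Their summed level was 25129 to 27552 CPM in Huh7 P and 37717 to 40049 CPM in Huh7 LR. In the resistant line 6 of the 8 were higher at an adjusted p under 0.05, beside 23.3% of all genes and loci tested. The 6 fibroblast markers summed to 2.16 to 2.28 CPM in Huh7 P and 5.02 to 8.02 CPM in Huh7 LR, with DCN at 0 in every library. Of the 5 endothelial markers, CDH5 and KDR were at 0, and the sum, 38.8 to 47.5 CPM in Huh7 P and 65.1 to 71.2 CPM in Huh7 LR, was mostly PECAM1. Of the 5 leukocyte markers, HLA-DRA and TYROBP were at 0, and the sum was 62.0 to 67.6 CPM in Huh7 P against 9.70 to 13.8 CPM in Huh7 LR, mostly LYZ, which was called lower (63.7 to 9.19 CPM on average), while CD14 did not pass (1.88 and 2.71 CPM). The 5 megakaryocyte markers summed to 3.27 to 4.50 CPM in the parental line and 4.97 to 7.12 CPM in Huh7 LR, with PF4 at 0. The part of these differences in the results below was not tested, and in bulk RNA a change in the number of cells cannot be told apart from a change in RNA per cell.

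Of the 10 genes, 9 had enough counts to test, each with at least 28 counts in every library, and F9 had none. A gene was called at an adjusted p under 0.001 with a change above 2-fold, where p came from the edgeR quasi-likelihood test and was adjusted by Benjamini-Hochberg over all 17531 genes and loci tested. KNG1, F13B, F12 and F10 were called higher in Huh7 LR. These are 4 of 9 genes, where 4.43% of all genes and loci tested were called higher. The genes were chosen with earlier results of these data known, so these shares are a description and not a test. None of the 9 was called lower, against 1.78% of all genes and loci tested. At an adjusted p under 0.05 with no limit on the fold, 6 were higher (23.3% of all tested), which adds F11 and F7, and 2 were lower (22.4% of all tested), which were F2 and F5. F3 did not pass. The 3 libraries of each line did not overlap for 8 of the 9 genes, all but F3, and the same held for 55.9% of all genes and loci tested. The median log2 fold change of the 9 genes was 0.85, beside 0.00 over all genes and loci tested.

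**Figure D1:**
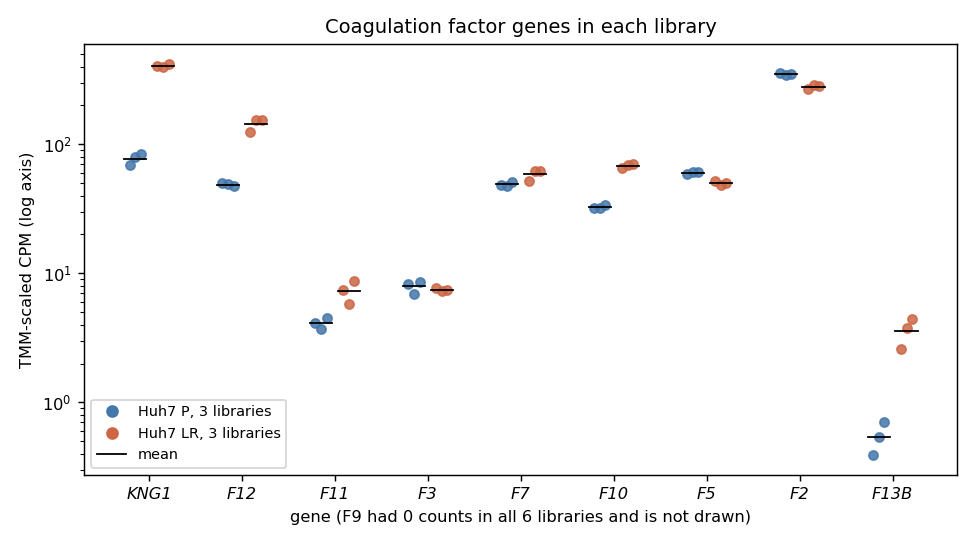
Level of each coagulation factor gene in every library, as TMM-scaled CPM on a log axis, with Huh7 P in blue, Huh7 LR in orange and the mean as a line. KNG1, F12, F10 and F13B lie clearly higher in all 3 Huh7 LR libraries, F2 and F5 lie slightly lower, and the libraries of F3 overlap.

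KNG1 and F12, which start the intrinsic arm, were both called higher. KNG1 (ENSG00000113889, chromosome 3, 186717276 to 186744410) encodes kininogen, the cofactor that holds factor XI and plasma prekallikrein in the contact complex and the precursor of bradykinin. In CPM, the parental libraries had 68.6, 79.1 and 84.7 and the resistant libraries 406, 394 and 422. All Huh7 LR libraries lay above all Huh7 P libraries, with no overlap. The rise was 5.26-fold, or 2.40 on the log2 scale with a standard error of 0.09 (edgeR adjusted p = 3.43e-08). Kininogen mRNA is spliced to a high and a low molecular weight form, and counts per gene do not separate them.

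F12 (ENSG00000131187, chromosome 5, 177402140 to 177409576), which encodes the protease that starts the contact pathway, rose alongside its cofactor. Huh7 P libraries held 49.7, 49.2 and 47.4 CPM, and Huh7 LR libraries held 125, 153 and 154 CPM. The Huh7 LR libraries were all higher, and Huh7 LR 1 was the lowest of them. This is a 2.96-fold rise, with a log2 difference of 1.56 (standard error 0.09, edgeR adjusted p = 5.14e-07). On the opposite strand GRK6, which encodes a receptor kinase, overlaps 399 of the 2769 exon bases of F12, and the library kit named in the labels does not mark strand. Reads from those shared bases cannot be assigned to either gene. GRK6 itself was at 55.3 ± 0.969 CPM in parental and 52.4 ± 7.01 CPM in resistant cells, a log2 difference of -0.08 (edgeR adjusted p = 0.529) and overlapping libraries. The summed CPM of F12 and GRK6, which contains the F12 counts themselves, had a log2 ratio of 0.92 between the means of the lines. The part of the shared bases in the F12 difference was not tested.

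Factor XI is the protease activated by factor XIIa, and its gene F11 (ENSG00000088926, chromosome 4, 186265945 to 186288806) was much less abundant. It had 4.10, 3.71 and 4.48 CPM in Huh7 P and 7.49, 5.82 and 8.78 CPM in Huh7 LR. Every Huh7 LR library was higher, although the spread within Huh7 LR was wide. The log2 fold change of 0.85 (standard error 0.16, edgeR adjusted p = 0.00155) stayed under 2-fold, and its 95% interval of 0.49 to 1.20 includes changes on either side of 2-fold. F9 (ENSG00000101981, chromosome X, 139530758 to 139563458), the gene of factor IX and the last protease of the intrinsic arm, had 0 counts in all 6 libraries. A count of 0 allows up to 3 counts per library, which is 0.0420 to 0.0478 CPM at these depths and covers counting error only. No fold can be given for it.

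F7 (ENSG00000057593, chromosome 13, 113105788 to 113120681), whose protein is the protease that tissue factor binds, had 48.4, 47.9 and 50.6 CPM in Huh7 P and 52.1, 62.4 and 62.1 CPM in Huh7 LR. The lines did not overlap, but Huh7 LR 1 lay close to the highest Huh7 P library. The 1.20-fold rise, a log2 fold change of 0.27 (standard error 0.08, edgeR adjusted p = 0.0215), no longer passed 0.05 without Huh7 P 1 (adjusted p = 0.0654), without Huh7 P 2 (0.0771) or without Huh7 LR 3 (0.0968), while its direction stayed. F3 (ENSG00000117525, chromosome 1, 94529225 to 94541800) had 8.32, 6.95 and 8.60 CPM in Huh7 P and 7.64, 7.24 and 7.45 CPM in Huh7 LR. These values overlapped, with Huh7 P 2 the lowest of all 6. The log2 fold change of F3 was -0.10 with a 95% interval of -0.36 to 0.17 (edgeR adjusted p = 0.542), so that a 2-fold change in either direction lies outside the interval.

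Where the arms meet, the protease rose and its cofactor and substrate fell slightly. F10 (ENSG00000126218, chromosome 13, 113122814 to 113149529) encodes factor X, which as factor Xa cleaves prothrombin. It had 31.9, 32.2 and 33.8 CPM in Huh7 P and 65.3, 68.6 and 70.1 CPM in Huh7 LR, so that the lines were far apart beside the spread within each. The fold was 2.08, with a log2 difference of 1.06 (standard error 0.07, edgeR adjusted p = 1.13e-06) and a 95% interval of 0.91 to 1.21. The interval reaches below the 2-fold limit of a call.

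F5 (ENSG00000198734, chromosome 1, 169514166 to 169586588), which encodes the cofactor of factor Xa, was lower in Huh7 LR. Huh7 P libraries had 58.9, 60.6 and 61.5 CPM and Huh7 LR libraries 51.5, 48.0 and 49.7 CPM. All Huh7 LR libraries were lower, and the log2 fold change was -0.28 (standard error 0.07, edgeR adjusted p = 0.00528). F2 (ENSG00000180210, chromosome 11, 46719180 to 46739506), the gene of prothrombin, had 355, 347 and 349 CPM in Huh7 P and 266, 287 and 281 CPM in Huh7 LR. It too was lower in every Huh7 LR library, with a log2 difference of -0.33 (standard error 0.06, edgeR adjusted p = 0.00162), a level 0.793 times that of Huh7 P. Both falls were under 2-fold.

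F13B (ENSG00000143278, chromosome 1, 197038741 to 197067267) encodes the subunit that carries and protects the catalytic A subunit of factor XIII in plasma. Its counts were 28, 33 and 46 in parental cells and 169, 265 and 301 in resistant cells, or 0.390, 0.535 and 0.704 CPM against 2.59, 3.78 and 4.41 CPM. The lines were well separated at a low level. Its fold was 6.63, with a log2 difference of 2.73 (standard error 0.27, edgeR adjusted p = 1.89e-05) and a 95% interval of 2.13 to 3.33, the widest of the 9. Its size depended on the scale, with 2.32 on log2(FPKM + 0.1), where KNG1 had 2.37, and 1.04 on log2(FPKM + 1), where KNG1 had 2.32, F12 1.54 and F10 1.05. F13A1, which encodes the catalytic A subunit and belongs to other cell types, had 0 counts in every library.

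**Figure D2:**
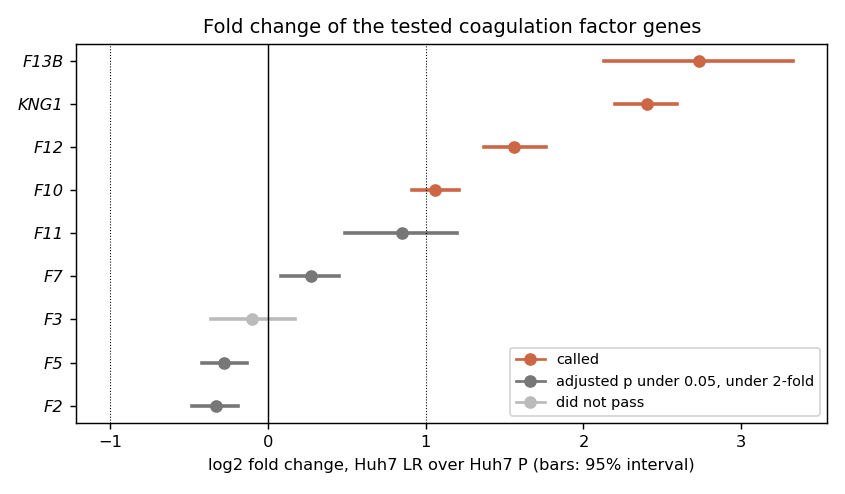
Log2 fold change of the 9 tested genes, Huh7 LR over Huh7 P, with 95% intervals from the edgeR fit and dotted lines at a 2-fold change. F13B, KNG1, F12 and F10 are called, F11 and F7 are above 0 and F5 and F2 below 0 without reaching 2-fold, and the interval of F3 spans 0.

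Per length, prothrombin was the most abundant of these mRNAs in both lines, and the order below it changed. In Huh7 P, F2 had 162 ± 3.59 FPKM (SD, n = 3), followed by F12 with 21.9 ± 0.740, KNG1 with 21.4 ± 1.77 and F10 with 19.9 ± 0.528 FPKM. F12 and KNG1, and KNG1 and F10, overlapped between libraries, so their order was not resolved. F7 (18.3 ± 0.583), F5 (7.88 ± 0.0959), F3 (3.21 ± 0.368), F11 (1.78 ± 0.159) and F13B (0.225 ± 0.0590 FPKM) followed without overlap. In Huh7 LR, F2 had 130 ± 4.15 FPKM (SD, n = 3) and KNG1 came next with 111 ± 2.14 FPKM, well above F12 (65.8 ± 7.24) and F10 (42.1 ± 1.17 FPKM). F7 (22.4 ± 1.88), F5 (6.63 ± 0.285), F11 (3.19 ± 0.674), F3 (3.08 ± 0.129) and F13B (1.54 ± 0.382 FPKM) came after them, and of all these neighbours in the Huh7 LR order F11 and F3 alone overlapped. The log2 ratio of mean FPKM and that of mean CPM differed by at most 0.05 for any of the 9 genes.

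Added over the 10 genes, FPKM came to 259, 253 and 257 in parental cells and to 370, 390 and 395 in resistant cells. Prothrombin made up 63.1% ± 0.847 (n = 3) of this sum in Huh7 P and 33.7% ± 0.644 (n = 3) in Huh7 LR. The share of KNG1 was 8.36% ± 0.756 in Huh7 P and 28.8% ± 1.20 in Huh7 LR, and that of F12 was 8.54% ± 0.290 and 17.1% ± 1.31. F10 went from 7.76% ± 0.197 to 10.9% ± 0.144, while F7, whose own level was higher in Huh7 LR, took 7.16% ± 0.170 and 5.80% ± 0.295. In Huh7 LR the shares of KNG1 and F12 together exceeded that of F2, which took most of the sum in Huh7 P.

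**Figure D3:**
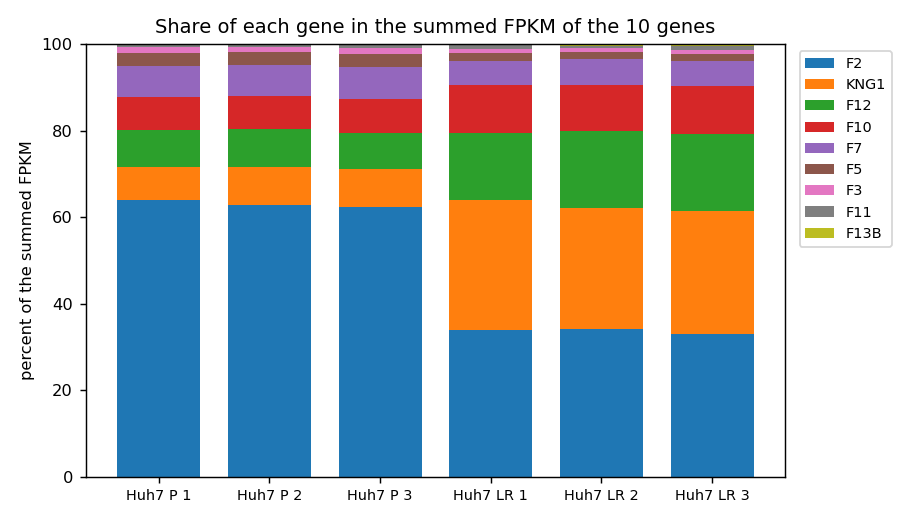
Share of each gene in the summed FPKM of the 10 coagulation factor genes, as stacked bars from 0 to 100 percent for each library. F2 fills 62.3% to 64.0% of the Huh7 P bars and 33.0% to 34.2% of the Huh7 LR bars, and KNG1 and F12 fill most of the difference.

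The stretches before the starts of the 4 called genes are shown because these genes rose together. The sequences are from RefSeq (GRCh38.p14), which holds a promoter for all 10 genes, and run 5′ to 3′ on the strand of the gene: chr3:186717109-186717305 (plus strand) for KNG1, chr5:177409555-177409814 (minus strand) for F12, chr13:113122549-113122808 (plus strand) for F10 and chr1:197067251-197067510 (minus strand) for F13B. Each begins 250 bases before the RefSeq start and ends 10 bases after it or 30 bases past the earliest GENCODE start, whichever comes first, which for KNG1 is 54 bases before the RefSeq start. Capitals mark the matches to the searched motifs.
KNG1: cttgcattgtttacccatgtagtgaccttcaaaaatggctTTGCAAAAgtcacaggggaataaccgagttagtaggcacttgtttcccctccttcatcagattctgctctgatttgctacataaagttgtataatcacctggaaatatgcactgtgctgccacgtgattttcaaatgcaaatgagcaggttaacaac
F12: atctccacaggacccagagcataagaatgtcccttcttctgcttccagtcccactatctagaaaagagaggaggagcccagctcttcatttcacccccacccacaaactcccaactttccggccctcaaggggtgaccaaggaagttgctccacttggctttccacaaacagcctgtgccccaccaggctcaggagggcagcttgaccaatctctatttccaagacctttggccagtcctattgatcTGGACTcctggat
F10: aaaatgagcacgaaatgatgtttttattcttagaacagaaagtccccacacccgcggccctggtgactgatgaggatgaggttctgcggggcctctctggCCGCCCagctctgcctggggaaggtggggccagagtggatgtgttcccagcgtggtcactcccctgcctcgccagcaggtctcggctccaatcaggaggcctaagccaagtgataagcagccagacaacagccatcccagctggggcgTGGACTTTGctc
F13B: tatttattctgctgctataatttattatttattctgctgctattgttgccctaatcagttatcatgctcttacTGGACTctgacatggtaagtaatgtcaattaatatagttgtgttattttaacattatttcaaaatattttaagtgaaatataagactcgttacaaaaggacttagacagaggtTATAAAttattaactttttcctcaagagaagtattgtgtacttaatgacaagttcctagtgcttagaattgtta

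Letters of sites for hepatocyte factors were looked for on both strands of the 300 bases from 250 before to 50 after each start. The HNF4 site CAAAGTCCA was found at F10, on the reverse strand from base -2 to base 7 counted from the RefSeq start, and in 0.38% of all 35116 promoters searched. Its shorter core AGTCCA, which lies within that site, was found at F10, F12, F13B, F9 and F3 and in 11.8% of all promoters. In F12 it spans the start, from base -3 to base 3. TTGCNNAA, a loose form of the C/EBP site, was found at KNG1 alone of the 10 and in 10.5% of all promoters. Its strict form TTGCGCAA (0.15% of promoters) was found at none of the 10. The TATA box TATAAA was found at F13B and F3 (11.5% of all promoters), the GC box GGGCGG at F10 and F3 (44.95%), and the AP-1 site TGACTCA at F3 (4.95%). No searched motif was found at all 4 called genes. These are matches of letters, not sites shown to be bound.

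The genes next to the members moved in different directions. F7 and F10 lie 2132 bases apart on the same strand and both code for vitamin K-dependent proteases, yet the log2 ratio of F10 to F7 counts was -0.60, -0.57 and -0.58 in parental and 0.33, 0.14 and 0.18 in resistant libraries. The ratio was higher in every Huh7 LR library, by 0.80 on average (two-sided exact permutation test, p = 0.1, the smallest p that 3 libraries against 3 allow). On either side of this pair, MCF2L, which encodes a guanine nucleotide exchange factor, had a log2 fold change of 0.43 (edgeR adjusted p = 7.38e-04), and PROZ, the gene of protein Z, had 0.60 (edgeR adjusted p = 0.00647). F13B lies between CFHR5, a complement factor H related gene with a log2 fold change of 0.09 (edgeR adjusted p = 0.895), and ASPM, a gene of the mitotic spindle that was called lower (-1.53, edgeR adjusted p = 3.58e-07). The tested neighbour of KNG1, the translation factor gene EIF4A2, lies 38794 bases away and had 0.43. HRG, 39035 bases away on the other side of KNG1, codes for the plasma protein histidine-rich glycoprotein. It was too low to test, with 2 to 7 counts per parental and 8 to 26 counts per resistant library. KLKB1, the gene of plasma prekallikrein, lies 7473 bases before F11 and is also a partner in the contact system. Parental libraries had 30, 28 and 23 KLKB1 counts and resistant libraries 112, 45 and 67, higher in each, and the log2 difference was 1.44 (standard error 0.37, edgeR adjusted p = 0.00853). PRR7, which lies 36868 bases from F12, had 0.59. Of the neighbours of genes that fell or stayed, CKAP5, 3541 bases from F2, and SLC19A2, 28162 bases from F5, both had -0.29. ZNF408 on the other side of F2 had 0.14 and did not pass. On the sides of F3, ABCD3, 10558 bases away, had -0.16 and did not pass, and SLC44A3, 278541 bases away, had 0.99.

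**Figure D4:**
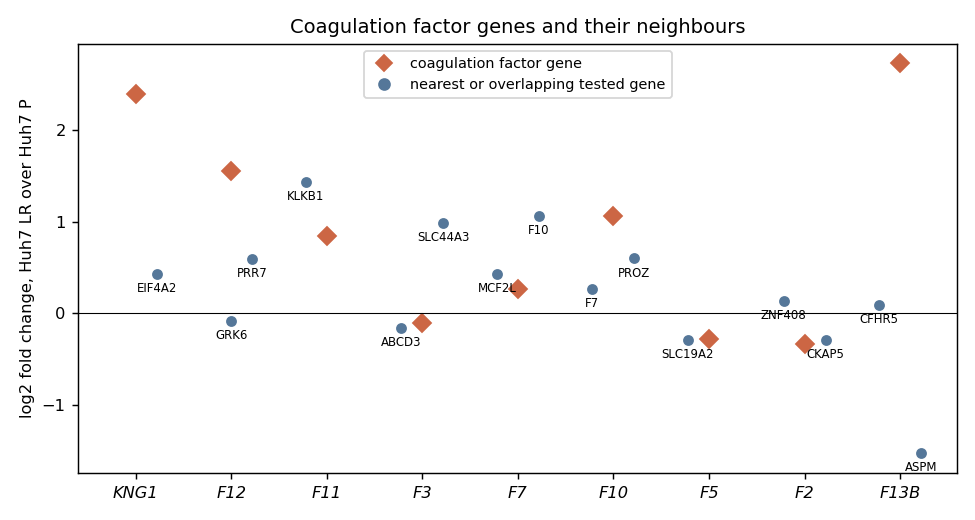
Log2 fold change of each coagulation factor gene (diamond) and of the nearest or overlapping tested genes (dots), Huh7 LR over Huh7 P. KNG1, F12 and F13B stand above all their neighbours, whereas KLKB1 lies above F11.

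Other genes of the clotting system were grouped by role, and each count is to be read beside all genes and loci tested, of which 4.43% were called higher and 1.78% lower, and 23.3% were higher and 22.4% lower at 0.05. The fibrinogen genes FGA, FGB and FGG, whose products thrombin cleaves, were all called higher, with log2 differences of 3.48, 2.49 and 2.42. FGA went from 111 ± 8.83 to 1237 ± 199 CPM. Of 4 partners in the contact system 3 were tested. KLKB1 and GP1BA, which encodes a platelet receptor subunit and had 0.70, passed 0.05 as higher, and SERPING1, the gene of the C1 inhibitor that blocks factor XIIa, did not pass (-0.20, edgeR adjusted p = 0.34). Of the clotting factors of other cells, F8 did not pass, with 0.928 ± 0.153 CPM in parental and 0.941 ± 0.195 CPM in resistant cells. VWF, the carrier of factor VIII, was counted 0, 0 and 8 times in parental and 19, 26 and 21 times in resistant libraries (edgeR adjusted p = 0.0179), a level too low for a stable fold.

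In the list of the vitamin K cycle and propeptide processing, 4 of 8 genes passed 0.05 as higher and 2 as lower, beside 23.3% and 22.4% of all genes and loci tested, and the median log2 difference was 0.16. PCSK6, a propeptide-cleaving protease, had 0.53 and CALU, which encodes calumenin, an inhibitor of the carboxylase, had 0.44. GGCX, the carboxylase itself, went from 71.1 ± 3.95 to 89.0 ± 2.64 CPM, or 0.33 on the log2 scale (edgeR adjusted p = 0.0027). Of 4 genes for the secretion and tyrosine sulfation of factors V and VIII, TPST1, a sulfotransferase, was higher (0.55), a share near the 23.3% of all tested, and the other 3 did not pass, the cargo receptor genes LMAN1 (-0.18) and MCFD2 (0.08) among them.

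Of 11 anticoagulant genes 10 were tested, 5 passed 0.05 as higher and 2 as lower, beside the same 23.3% and 22.4% of all tested, 3 did not pass, and the median log2 difference was 0.30. SERPIND1, which encodes heparin cofactor II, an inhibitor of thrombin, was the one called, from 25.7 ± 0.631 to 61.2 ± 5.03 CPM, or 1.25 on the log2 scale (edgeR adjusted p = 9.74e-07). TFPI, the inhibitor of tissue factor with factor VIIa, was lower at -0.47 in counts (edgeR adjusted p = 0.0194), whereas its FPKM overlapped, with 36.7, 33.0 and 36.6 in parental and 38.3, 22.5 and 28.1 in resistant libraries, a log2 ratio of means of -0.26. In the fibrinolysis list, 3 of 7 genes were higher and 2 lower at 0.05, again beside 23.3% and 22.4% of all tested. PLG, the gene of plasminogen, and PLAU, the gene of the plasminogen activator urokinase, were called higher with 1.48 and 1.64, and PLAUR, the urokinase receptor, was called lower with -1.32. The receptors F2RL1 and F2R, which are cleaved by the proteases of the extrinsic arm and by thrombin, were both higher at 0.05, with 0.96 and 0.54, beside 23.3% of all tested, and the other 2 listed receptors were too low to test.

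Transcription factors known to drive liver genes changed by less than 2-fold. Of 13 tested, 5 passed 0.05 as higher and 3 as lower, beside 23.3% and 22.4% of all genes and loci tested, so that the lower count is near the background, and the median was 0.16. CEBPA rose from 308 ± 3.77 to 461 ± 25.8 CPM, or 0.58 on the log2 scale (edgeR adjusted p = 5.55e-05), and GABPA fell by 0.56 on the log2 scale. HNF4A had -0.06 with a 95% interval of -0.25 to 0.13 and did not pass. HNF4A is another gene where the deposited units part, since its FPKM were 62.5, 66.3 and 55.6 in parental and 51.0, 102 and 96.4 in resistant libraries, a log2 ratio of means of 0.43 with overlapping libraries. Of 6 factors known to act on F3, 4 passed 0.05 as higher and 1 as lower, beside the same 23.3% and 22.4% of all tested. EGR1, an early response gene, was called higher, from 2.66 ± 0.320 to 6.55 ± 1.57 CPM, or 1.30 on the log2 scale (edgeR adjusted p = 2.00e-04).

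**Figure D5:**
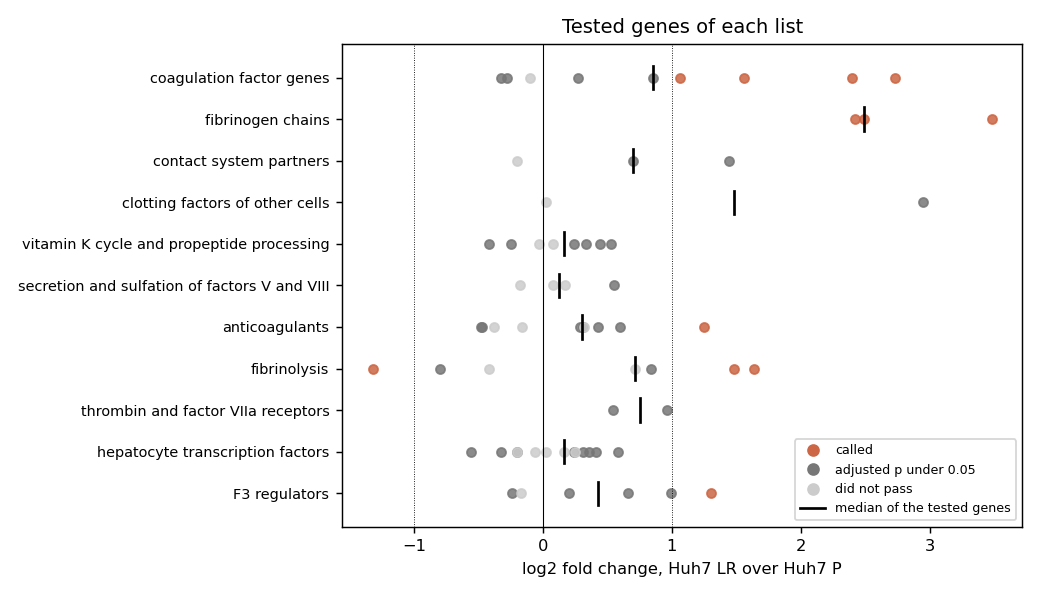
Log2 fold change of every tested gene in the coagulation factor list and in the other lists, Huh7 LR over Huh7 P, with called genes in orange, the median of each list as a black line and dotted lines at a 2-fold change. The median is 0.85 for the coagulation factor genes, 2.49 for fibrinogen and 0.16 for both the vitamin K list and the hepatocyte transcription factors.

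The genes with profiles most like those of F13B, KNG1 and F12, the 3 members with the largest log2 fold changes in the edgeR fit, were found among all annotated genes tested. Likeness was the root mean square difference over the 6 libraries between profiles of log2(CPM + 0.5), each centred on its own mean. For KNG1 the nearest were FGG, a fibrinogen chain gene, at 0.110, PEBP4 at 0.112 and CRISPLD1 at 0.113. For F13B they were SLCO1B1, a hepatic uptake transporter gene, at 0.121, GPR137B at 0.141 and DNAJC6 at 0.158. For F12 they were ABCB1, the drug efflux pump gene, and TTC39C, both at 0.052, and SLC29A4 at 0.059. With only these 2 lines, likeness largely follows the size of the difference between them. The log2 fold changes were 1.56 for F12, 1.55 for ABCB1, 1.65 for TTC39C and 1.64 for SLC29A4. A link between these genes was not tested. None of these nearest genes was among the 10 genes themselves. The closest of the 10 to F12 were F10 at 0.264 and F13B at 0.272, ranks 310 and 337 among the 14053 annotated genes tested. The closest to KNG1 was F13B, at rank 62, and the closest to F13B was F12, at rank 58. The likeness of low genes depends on the added 0.5 CPM, so that their near profiles need not have like folds. PEBP4 had 0 counts in all 3 Huh7 P libraries and 128, 127 and 132 in Huh7 LR, and SLCO1B1 had 0, 11 and 9 against 88, 156 and 190 counts.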

How the data were processed

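The authors deposited a table with raw read counts and FPKM per gene for 6 poly(A) libraries, and the counts were used without change. FPKM were scaled by the authors for length and library size. The submitters' processing notes name TopHat2, Cufflinks, DESeq and the mouse build mm10, without roles, and the labels describe extraction from honeybee larvae, although all 19974 annotated identifiers are human genes of GENCODE 29 (GRCh38), from which the coordinates come. How strand was counted is not given in the sources used here. A further 34 lines of annotation text carry no gene and were left out.

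Counts were filtered with filterByExpr (minimum count 10, minimum total 15), scaled by TMM (factors 0.977 to 1.03) and tested in edgeR 4.0.16 (R 4.3.3) by the quasi-likelihood test, with the script tested on simulated data. Each standard error is the size of the log2 fold change over the root of its F value, and 95% intervals use the t distribution. Samples were grouped by title. The study describes them as independent, and p-values measure the spread between them. Alternatives were DESeq2 1.42.0, limma 3.58.1 (limma-trend) on log2 FPKM with 0.1 or 1 added (a minimum of 0.5 FPKM in 3 libraries, or none), other filters and size factors, a replicate block and each library left out. A list's genes were named if called, otherwise up to 2 with the largest change that passed. GGCX, TFPI, LMAN1, MCFD2, SERPING1, F8 and HNF4A were named after their values were seen. A gene of the transcription factor list and a searched motif are not reported here. The members and lists were chosen with earlier results of these data known. Figures were drawn with matplotlib 3.10.9.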

Additional observations from a re-analysis of the deposited data

How the results depend on the processing

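With 3 samples per line, spreads are estimated from few values, and F13B and F11 rest on the fewest counts among the tested members. The 4 genes called higher, KNG1, F12, F10 and F13B, were called under all 14 alternative fits, and 0 were called lower. Leaving out each library in turn gave 4 called higher in every case. The number of all genes and loci called moved from 1088 to 352 with limma-trend on log2(FPKM + 1) and to 473 with limma-trend on unfiltered log2(FPKM + 0.1), and was 775 to 1067 with a library left out. The cause was not tested. Of 126 refitted values of the 9 tested members, 123 kept their direction and side of an adjusted p of 0.05, 3 of F7 lost significance and 0 changed direction. The log2 fold change of F13B was between 1.04 on log2(FPKM + 1), where a pseudocount compresses low genes, and 2.96.

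Samples with the same replicate number correlated by 0.057, 0.067 and 0.025 in their deviations from the line means. These values are small, although each sample correlated best with its own number. With 3 samples per line, they cannot tell whether the samples were paired. With the replicate number as a block, 783 genes and loci were called higher and 316 lower, and of the members 4 were called higher and 0 lower.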
